A study of Mus musculus with 4 samples.

Results

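Gsta1, Mgst3, Adh7, Aldh3a1, Sult1b1, Gstm1 and Gpx2, 7 of the 17712 genes in the count table, encode detoxifying enzymes and were chosen by name as genes of pit cells after their levels across the cell clusters had been seen. Their levels across clusters are therefore given as a description, and tests were made only between the sorts of cells, which the choice did not use. The study profiled single epithelial cells of the mouse stomach with 10x Genomics 3′ libraries, in which each captured RNA molecule is counted once as a unique molecular identifier (UMI). All cells came from 14 weeks old female Rosa26iH2b-GFP mice, in which histone H2b fused to GFP is driven by the doxycycline-dependent TRE3G promoter through a Tet-on 3G activator from the same knock-in. The mice ate doxycycline for 4 weeks and were then chased without it for 6 weeks, so that cells which divide dilute the label. Viable Cd45-negative and Cd31-negative cells were sorted either as GFP+ (Epcam-positive cells that had kept the label) or as Epcam+ (all Epcam-positive cells), and cells of 2 mice were combined for loading.

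Both sorts carry the transgene and both received doxycycline. Each sort had 2 libraries, here GFP+ 1, GFP+ 2, Epcam+ 1 and Epcam+ 2. The sources do not say whether the libraries of a sort came from separate mice. A p-value here sets the difference between the sorts against the spread between libraries of a sort, and that spread may be technical. The 4 libraries held 467, 444, 1642 and 1896 cells with a median of 45119, 104840, 35067 and 31735 UMIs per cell, and shared 0 to 3 cell barcodes in pairs. The study's own 10 clusters and their names were used. Pit cells, the 884 cells of cluster 2, numbered 42 and 27 in the GFP+ libraries and 363 and 452 in the Epcam+ libraries. All 10 pit markers listed had UMIs in this cluster in every library, and their summed level was 150109 and 210053 counts per 1000000 UMIs (CPM) in GFP+ pit cells, against 104953 and 123494 CPM in Epcam+ pit cells. Of the other clusters, 0 is neck, 1 and 5 are chief, 3 and 4 are isthmus, 6 and 7 are endocrine and 8 is parietal. Sums over fewer than 20 cells of a library are given only as such. These are the GFP+ cells of clusters 3 and 4, the cells of cluster 7 in GFP+ 2 and all of cluster 9.

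Pit cells, also called foveolar cells, line the stomach surface and its pits, secrete mucus and face swallowed chemicals directly. Detoxification usually runs in steps: oxidation or reduction of a compound, conjugation to glutathione, sulfate or glucuronic acid, and export. Many of these enzymes are under the transcription factors Nrf2, which binds antioxidant response elements, and the aryl hydrocarbon receptor, which binds xenobiotic response elements. Gsta1, Gstm1 and Mgst3 belong to the alpha, mu and membrane-bound branches of the glutathione transferases, which join glutathione to electrophiles. Adh7 is a class IV alcohol dehydrogenase that oxidizes ethanol and retinol, Aldh3a1 oxidizes aldehydes, Sult1b1 transfers sulfate to phenols and thyroid hormones, and Gpx2 is a glutathione peroxidase of epithelia.

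In GENCODE vM21 (GRCm38) Gsta1 spans positions 78230656 to 78242684 of chromosome 9, Mgst3 positions 167371966 to 167393841 of chromosome 1, and Adh7 positions 138217760 to 138233382 of chromosome 3. Aldh3a1 spans positions 61207537 to 61218421 of chromosome 11 and Sult1b1 positions 87513339 to 87538195 of chromosome 5. Gstm1 lies at 108012255 to 108017973 on chromosome 3 and Gpx2 at 76792333 to 76795554 on chromosome 12. Gsta1, Adh7 and Aldh3a1 are on the plus strand and the other 4 genes on the minus strand.

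The 250 bases before the RefSeq start (build GRCm38.p6) are shown 5′ to 3′ on the gene's own strand for 4 of the genes and for Gsta2. Gsta1 and Gsta2 are shown because 27.7% of the 50-base words in the last 500 bases of the Gsta1 transcript also occur in Gsta2, Mgst3 and Adh7 because they followed the pit markers within the pit cells of the Epcam+ libraries, and Gpx2 because it ran the other way. Capitals mark GCGTG, the core of the xenobiotic response element, read on either strand. The windows are chr9:78230419-78230668 (plus strand) for Gsta1, chr9:78347146-78347395 (minus strand) for Gsta2, chr1:167393842-167394091 (minus strand) for Mgst3, chr3:138217523-138217772 (plus strand) for Adh7 and chr12:76795555-76795804 (minus strand) for Gpx2.
Gsta1: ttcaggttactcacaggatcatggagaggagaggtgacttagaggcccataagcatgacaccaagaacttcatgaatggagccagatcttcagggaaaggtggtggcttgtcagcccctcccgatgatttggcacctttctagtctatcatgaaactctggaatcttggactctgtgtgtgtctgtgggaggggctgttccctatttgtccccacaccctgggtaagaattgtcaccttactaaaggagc
Gsta2: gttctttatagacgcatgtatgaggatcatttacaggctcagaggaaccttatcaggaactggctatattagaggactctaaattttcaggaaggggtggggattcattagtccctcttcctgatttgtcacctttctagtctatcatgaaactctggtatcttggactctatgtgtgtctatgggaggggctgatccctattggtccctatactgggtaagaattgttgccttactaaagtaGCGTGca
Mgst3: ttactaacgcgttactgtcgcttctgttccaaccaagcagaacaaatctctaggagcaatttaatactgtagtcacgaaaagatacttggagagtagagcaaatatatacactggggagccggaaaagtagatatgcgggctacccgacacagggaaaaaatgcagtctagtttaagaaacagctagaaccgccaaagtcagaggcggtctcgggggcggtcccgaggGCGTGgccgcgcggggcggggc
Adh7: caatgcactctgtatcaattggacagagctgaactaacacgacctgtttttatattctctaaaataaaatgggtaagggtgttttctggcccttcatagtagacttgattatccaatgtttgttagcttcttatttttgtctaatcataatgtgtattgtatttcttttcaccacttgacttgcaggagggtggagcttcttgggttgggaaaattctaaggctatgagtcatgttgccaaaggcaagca
Gpx2: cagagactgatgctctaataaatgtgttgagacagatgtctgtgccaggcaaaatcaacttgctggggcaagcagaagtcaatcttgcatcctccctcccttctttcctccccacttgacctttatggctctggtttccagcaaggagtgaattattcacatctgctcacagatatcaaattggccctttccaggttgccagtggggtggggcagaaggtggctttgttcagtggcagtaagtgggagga

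Over 239 aligned bases the Gsta1 and Gsta2 windows were identical at 77.0%. The core of the antioxidant response element, searched as TGACNNNGC on both strands, stood in 10.2% of the 32851 RefSeq windows of this length and in none of the windows of 6 of the 7 genes (Gstm1 and Sult1b1 have 2 windows each). GCGTG on either strand stood in 28.2% of all windows. Among the 7 genes it occurred in the Mgst3 window, in both Gstm1 windows at the same genomic site and in 1 of the Sult1b1 windows, and outside them in that of Gsta2. Neither motif was in the Gsta1, Adh7 or Gpx2 windows, which says only that these letters are not within these 250 bases.

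Gsta1, whose product conjugates glutathione to electrophiles in the cytosol, reached 5671 and 5760 CPM in GFP+ pit cells and 3519 and 3361 CPM in Epcam+ pit cells. In the Epcam+ libraries it stood at 1353 and 1388 CPM in isthmus cluster 3 and at 1355 and 1609 CPM in isthmus cluster 4. In neck cells it was 9.84 and 5.96 CPM in the GFP+ libraries and 14.9 and 25.2 CPM in the Epcam+ libraries. Its mean over the 4 pit libraries, 4578 ± 1320 CPM (SD, n = 4), was 3.09 times that of cluster 4 and 327 times that of neck cells. Here and for the genes below, the pit mean covers both sorts. The means of clusters 3 and 4 and of parietal cells cover only the 2 Epcam+ libraries. Ratios to these clusters therefore hold part of any difference between the sorts in pit cells, and the Epcam+ pit values of Gsta1 lay below its pit mean. Among sums of at least 20 cells no pit library overlapped with a library of another cluster, but the 8 cells of cluster 4 in GFP+ 2 had 4165 CPM, above both Epcam+ pit values. Parietal cells had 487 and 49.3 CPM in the Epcam+ libraries, beside a summed pit marker level of 11944 and 1415 CPM in the same cells, and the part of pit RNA in the parietal values was not tested. Chief cells of cluster 1 held 1.47 and 0.38 CPM in the GFP+ libraries, against 3.19 and 3.03 CPM in the Epcam+ libraries. The Gsta1 count is uncertain as a measure of one gene: 90.02% of the 50-base words in the last 500 bases of its transcript also occur in Gsta2, Gm3776 or Gm10639. Over all cells Gsta1 was given 193011 UMIs, Gm3776 12186, Gsta2 3648 and Gm10639 252.

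Mgst3, a membrane-bound glutathione transferase and peroxidase, reached 2952 and 2811 CPM in GFP+ pit cells and 2794 and 2678 CPM in Epcam+ pit cells. It stood at 1693 and 1674 CPM (cluster 3) and 1727 and 1874 CPM (cluster 4) in isthmus cells of the Epcam+ libraries. Parietal cells of those libraries followed with 1152 and 731 CPM. Unlike Gsta1, it was above 100 CPM in neck cells, with 168.6 and 143 CPM in the GFP+ libraries against 328.7 and 438.9 CPM in the Epcam+ libraries. The pit mean of 2808 ± 112 CPM was 1.56 times that of cluster 4, 2.98 times that of parietal cells and 10.4 times that of neck cells, with no overlap between libraries. In cluster 9, which has fewer than 20 cells per library and whose tuft markers summed to 7066 CPM in its 1 GFP+ cell and 10542 and 10764 CPM in its Epcam+ cells, Mgst3 was at 1203 CPM and at 1118 and 1012 CPM.

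Gstm1, the mu-class glutathione transferase, showed no clear step between pit and isthmus in CPM. It was 572 and 483 CPM in GFP+ pit cells and 629 and 536 CPM in Epcam+ pit cells, beside 579 and 529 CPM (cluster 3) and 456 and 488 CPM (cluster 4) in the Epcam+ libraries. The pit mean of 555 ± 61.5 CPM was 1.00 times that of cluster 3 and 1.17 times that of cluster 4, and the libraries overlapped in both cases. With TMM scaling between clusters the ratios were 1.13 and 1.37, and the libraries did not overlap. Neck cells had 156 and 194 CPM in the GFP+ libraries, against 200 and 252 CPM in the Epcam+ libraries, and the pit mean was 2.77 times theirs.

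Adh7, the alcohol and retinol dehydrogenase, was 441 and 511 CPM in GFP+ pit cells and 391.5 and 410.6 CPM in Epcam+ pit cells. Isthmus cells of the Epcam+ libraries had 229.7 and 214 CPM (cluster 3) and 224 and 246 CPM (cluster 4), and the pit mean of 438.7 ± 52.6 CPM was 1.98 and 1.87 times theirs. The 8 cells of cluster 4 in GFP+ 2 had 463 CPM, above 3 of the 4 pit libraries. Neck cells held 2.13 and 1.49 CPM in the GFP+ libraries and 3.54 and 4.50 CPM in the Epcam+ libraries. Aldh3a1, which oxidizes the aldehydes that such dehydrogenases and lipid peroxidation produce, varied more between the pit libraries, with 265 and 433 CPM in the GFP+ and 238 and 293 CPM in the Epcam+ libraries. Cluster 3 held 71.2 and 94.1 CPM of it and cluster 4 held 52.5 and 107 CPM in the Epcam+ libraries. The pit mean of 307 ± 87.0 CPM was 3.72 times that of cluster 3, the next cluster, and no libraries overlapped among sums of at least 20 cells. The 8 cells of cluster 4 in GFP+ 2 had 263 CPM, above the pit value of Epcam+ 1. Neck cells held at most 1.06 CPM of Aldh3a1. Endocrine cluster 7 had 0 UMIs, which allows up to 4.54 CPM in GFP+ 1 and 3.82 and 4.49 CPM in the Epcam+ libraries by 3 counts. In GFP+ 2, with 8 cells of this cluster, it allows up to 27.2 CPM. These are limits for counting error only.

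Sult1b1, the sulfotransferase, was 198 and 259 CPM in GFP+ pit cells and 221.5 and 239 CPM in Epcam+ pit cells. The next clusters in level lay close together: the Epcam+ libraries had 151 and 154 CPM (cluster 3), 142 and 158 CPM (cluster 4) and 151 and 124 CPM (parietal). The pit mean of 229 ± 25.8 CPM was 1.504, 1.53 and 1.67 times theirs, without overlap. Sult1b1 was lower elsewhere, with a mean of 22.7 CPM in neck cells and 0.63 CPM in chief cluster 1. Gpx2, which reduces peroxides with glutathione, was the one of the 7 genes whose highest mean was not in the pit cluster. It was 302 and 206 CPM in GFP+ pit cells and 278 and 245 CPM in Epcam+ pit cells, beside 278 and 281 CPM (cluster 4) and 233 and 205 CPM (cluster 3) in the Epcam+ libraries. The pit mean of 258 ± 41.6 CPM was 0.922 times that of cluster 4 and 1.18 times that of cluster 3, and the libraries overlapped with both. With TMM scaling between clusters it was 1.07 times that of cluster 4, with overlap, and 1.33 times that of cluster 3, without overlap.

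Thus 6 of the 7 genes had their highest mean in the pit cluster, beside 7.50% of the 10409 genes with at least 10 CPM in a cluster. Since the genes were chosen for it, the count is only a description. It ran to 5 when the UMIs of the secreted chief cell products Clps, Pla2g1b and Pgc were left out of the totals. It was also 5 without cells called doublets, without GFP+ 1 and without Epcam+ 2. In these settings the highest mean of Gstm1 was in cluster 3. With TMM scaling between clusters the count was 7. The plot of levels by cluster and library shows the steep genes (Gsta1, Adh7 and Aldh3a1) beside the shallow ones (Gstm1 and Gpx2).

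**Figure D1:**
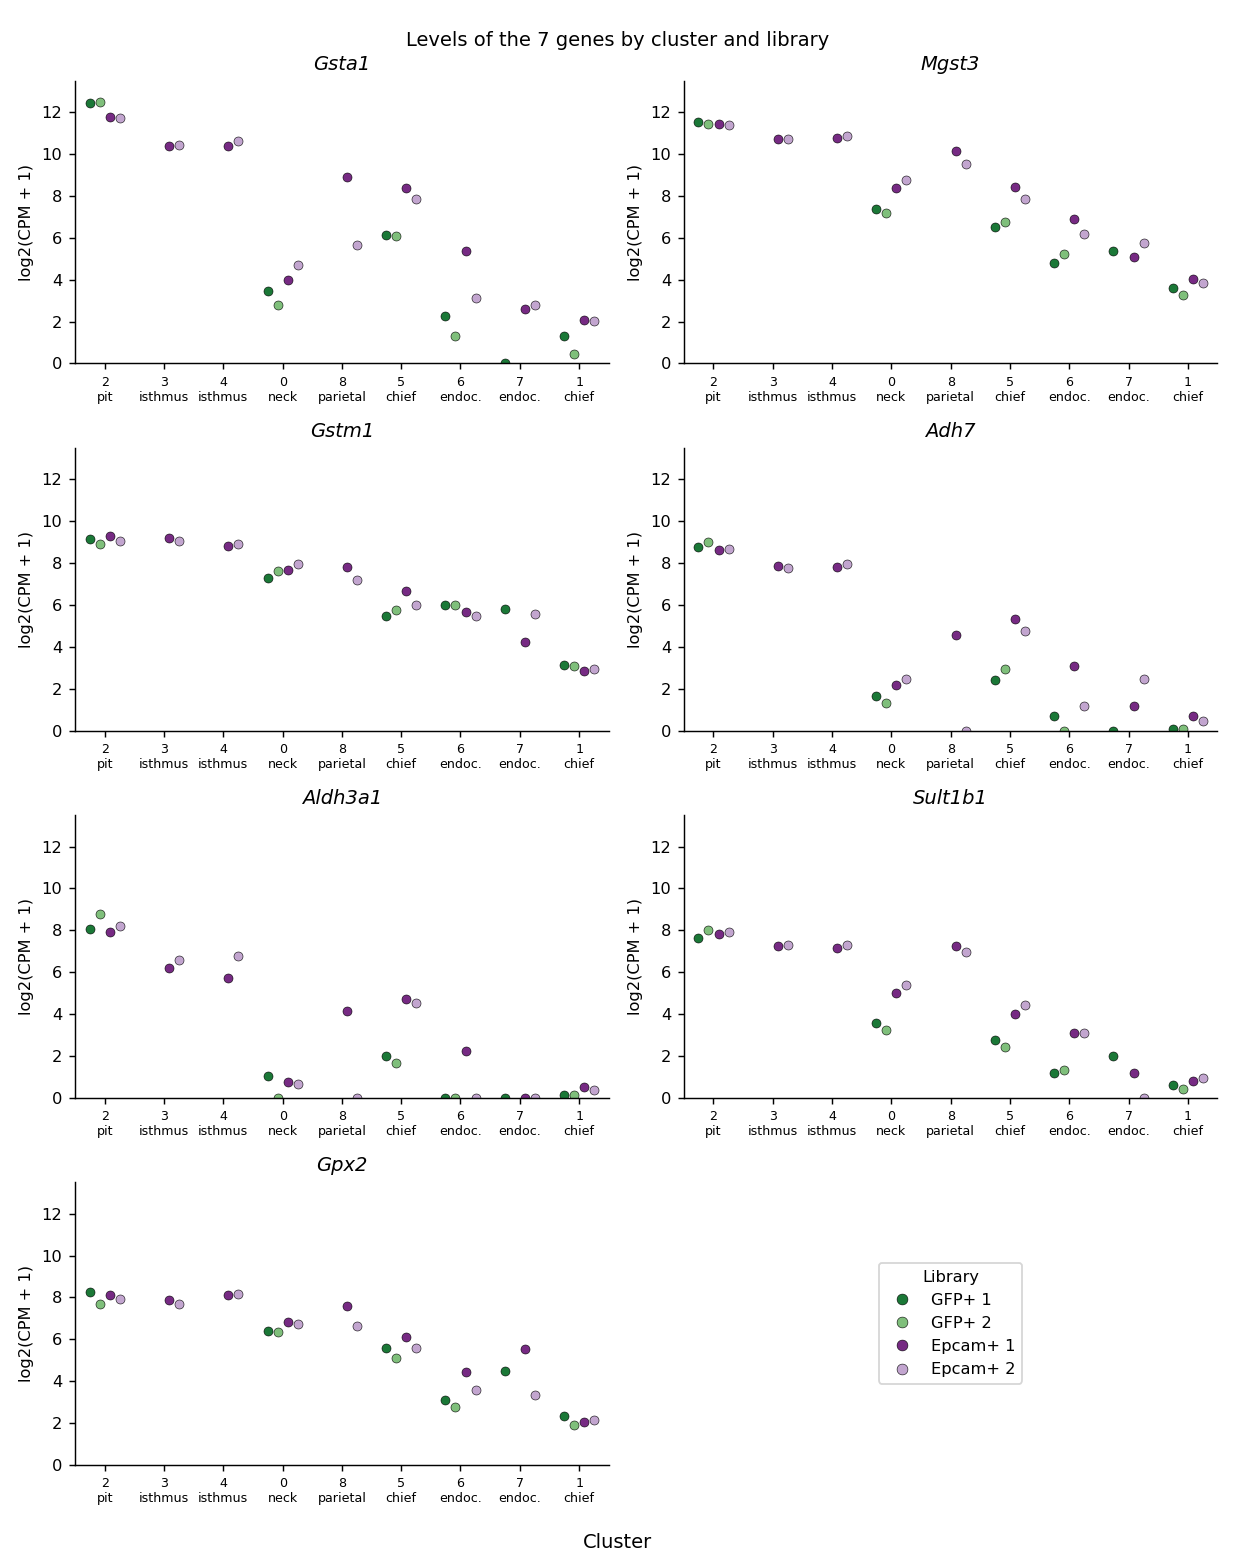
Level of each gene as log2(CPM + 1) in each cluster with at least 20 cells in a library; 1 point per library, GFP+ in green and Epcam+ in purple. The pit cluster is at the left of each panel, where Gsta1 lies at 5671 and 5760 CPM in the GFP+ libraries and at 3519 and 3361 CPM in the Epcam+ libraries. Gstm1 and Gpx2 stay about level across pit and isthmus on this scale, which has no TMM scaling.

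Most pit cells had UMIs of the genes. After each cell was thinned to 16880 UMIs, 100% of 861 pit cells had a UMI of Mgst3, 97.9% of Gstm1, 96.6% of Gsta1, 95.01% of Gpx2, 93.8% of Sult1b1, 89.8% of Adh7 and 68.6% of Aldh3a1. Without thinning, Aldh3a1 was seen in 74.9% and Adh7 in 94.0% of 884 pit cells, whose median depth was 37728 UMIs. Per library the thinned share for Aldh3a1 was 73.8% (95% Wilson interval 58.9% to 84.7%) and 88.9% (71.9% to 96.1%) in GFP+ pit cells and 64.2% (59.0% to 69.0%) and 70.4% (66.0% to 74.5%) in Epcam+ pit cells. Neck cells, which had a median of 23534 UMIs, gave thinned shares of 14.6% for Gsta1, 4.53% for Adh7 and 1.13% for Aldh3a1, but 92.2% for Mgst3, 90.7% for Gstm1 and 67.9% for Gpx2. In chief cells of cluster 1 the thinned shares were 3.41% for Gsta1, 19.2% for Mgst3, 0.568% for Adh7 and 0.227% for Aldh3a1. The part of free RNA from other cells in these shares was not tested. The median of 125623.5 UMIs per cell in cluster 1 was mostly chief cell products, and unthinned the same cells gave 15.5%, 71.7%, 3.01% and 2.46%.

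The genes whose pattern was most like each member, by Pearson correlation of log2(CPM + 1) over 29 sums of a cluster in a library, were taken from 4606 genes with at least 50 CPM in a cluster. These points share libraries and clusters, so the correlations are descriptions. For Gsta1 they were Sptssb (0.977), the trefoil peptide gene Tff1 (0.976) and the gastrokine gene Gkn2 (0.973). Adh7 and Aldh3a1 were near each other (0.978), and both were near Sptssb (0.987 for Adh7 and 0.979 for Aldh3a1) and the predicted alpha-class transferase gene Gm3776 (0.975 for Adh7 and 0.992 for Aldh3a1). Mgst3 was nearest to the keratin gene Krt19 (0.981), the quinone reductase gene Nqo1 (0.979) and the reductase gene Ptgr1 (0.979), and Sult1b1 to Mgst3 (0.977), Fam3b (0.967) and Ak3 (0.960). Gstm1 was nearest to Eif6 (0.987), Utp11 (0.987) and Plpp2 (0.985), of which Eif6 and Utp11 act in ribosome assembly, and Gpx2 to Tesc (0.975), Ptgr1 (0.974) and Gsta4 (0.965).

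The pit cluster was itself uneven. When the pit cells of a library were ordered by the share of their UMIs in Gkn1, Gkn2, Tff1 and Muc5ac, genes of secreted pit products, and cut into 3 equal parts, Gsta1 stood at 845, 3004 and 5810 CPM in the lowest, middle and highest part of Epcam+ 1. In Epcam+ 2 it stood at 797, 3061 and 5656 CPM. The parts held 121 cells each in Epcam+ 1 and 151, 151 and 150 cells in Epcam+ 2, and they are ranges of a score and not cell types. From the lowest to the highest part Gsta1 thus differed 6.88-fold and 7.10-fold. Aldh3a1 had the steepest course, with 29.2, 166 and 441 CPM in Epcam+ 1 and 28.8, 225 and 563 CPM in Epcam+ 2. That is 15.1-fold and 19.5-fold. The size of these steps depended on the ordering. With 2 parts by the same markers, Aldh3a1 differed 6.62-fold and 5.98-fold and Gsta1 3.81-fold and 3.68-fold. With 3 parts by Muc5ac alone, Aldh3a1 differed 4.56-fold and 2.82-fold and Gsta1 3.02-fold and 2.56-fold. In the lowest part by the 4 markers Gkn1 was at 875 and 1253 CPM, below the 6744 and 11462 CPM of isthmus cluster 3 in the same libraries.

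Mgst3 followed with 1700, 2708 and 3634 CPM in Epcam+ 1 and 1622, 2634 and 3548 CPM in Epcam+ 2, and Adh7 with 215, 426 and 489 CPM and 203, 441 and 546 CPM. Sult1b1 was the flattest of the 5 genes that were higher in the part with most pit marker RNA, with 188, 199 and 263 CPM in Epcam+ 1 and 169, 237.5 and 296 CPM in Epcam+ 2. Gstm1 ran the other way, with 832, 734.5 and 403 CPM in Epcam+ 1 and 644, 637 and 358 CPM in Epcam+ 2. Gpx2 did so too, with 332, 325 and 203 CPM and 285, 303 and 159 CPM, so that its highest part had 0.611 and 0.558 times the level of the lowest. In the GFP+ sort only GFP+ 1 had enough pit cells for 2 parts, of 21 cells each, and there the course was not the same for every gene. Gsta1 had 3425 CPM in its lower and 7531 CPM in its higher part, Aldh3a1 103 and 400 CPM and Mgst3 2360 and 3442 CPM. Adh7 had 448 and 436 CPM, a ratio of 0.973, and Sult1b1 192 and 203 CPM, a ratio of 1.06.

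The same ratio was taken for all genes with at least 10 CPM over the lowest and highest parts, without the 4 markers. Over these 7049 genes in Epcam+ 1 and 7038 in Epcam+ 2, the median log2 ratio of the highest over the lowest part was -0.275 and -0.382. The part of the marker RNA in the totals in these medians was not tested. Only 0.426% and 0.355% of genes had a ratio at or above that of Gsta1, 0.142% and 0.0568% at or above that of Aldh3a1, and 7.39% and 2.50% at or above that of Sult1b1. Gstm1 and Gpx2 were in the lower range, with 94.96% and 87.3% of genes at or above Gstm1 and 85.5% and 87.0% at or above Gpx2. These ranks are descriptions, because the pit cells were clustered on their expression. Cell by cell, the Spearman correlation with the pit marker share in Epcam+ 1 and Epcam+ 2 was 0.877 and 0.866 for Gsta1, 0.779 and 0.806 for Aldh3a1 and -0.396 and -0.334 for Gstm1, over cells of the same libraries that also share depth. Gsta1 and Mgst3 went together (0.799 and 0.769), and Gstm1 and Gpx2 did so more weakly (0.302 and 0.247). Pit cells with a UMI of the division genes Mki67 or Top2a had 6343 and 5655 CPM of Gsta1 in the GFP+ libraries (19 and 10 cells) and 3234 and 2751 CPM in the Epcam+ libraries (159 and 170 cells). Those without such a UMI had 5125 and 5818 CPM in the GFP+ libraries (23 and 17 cells) and 3756 and 3732 CPM in the Epcam+ libraries (204 and 282 cells). Cells with such a UMI were thus lower in both Epcam+ libraries and in GFP+ 2 and higher in GFP+ 1, and no test was made of this.

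**Figure D2:**
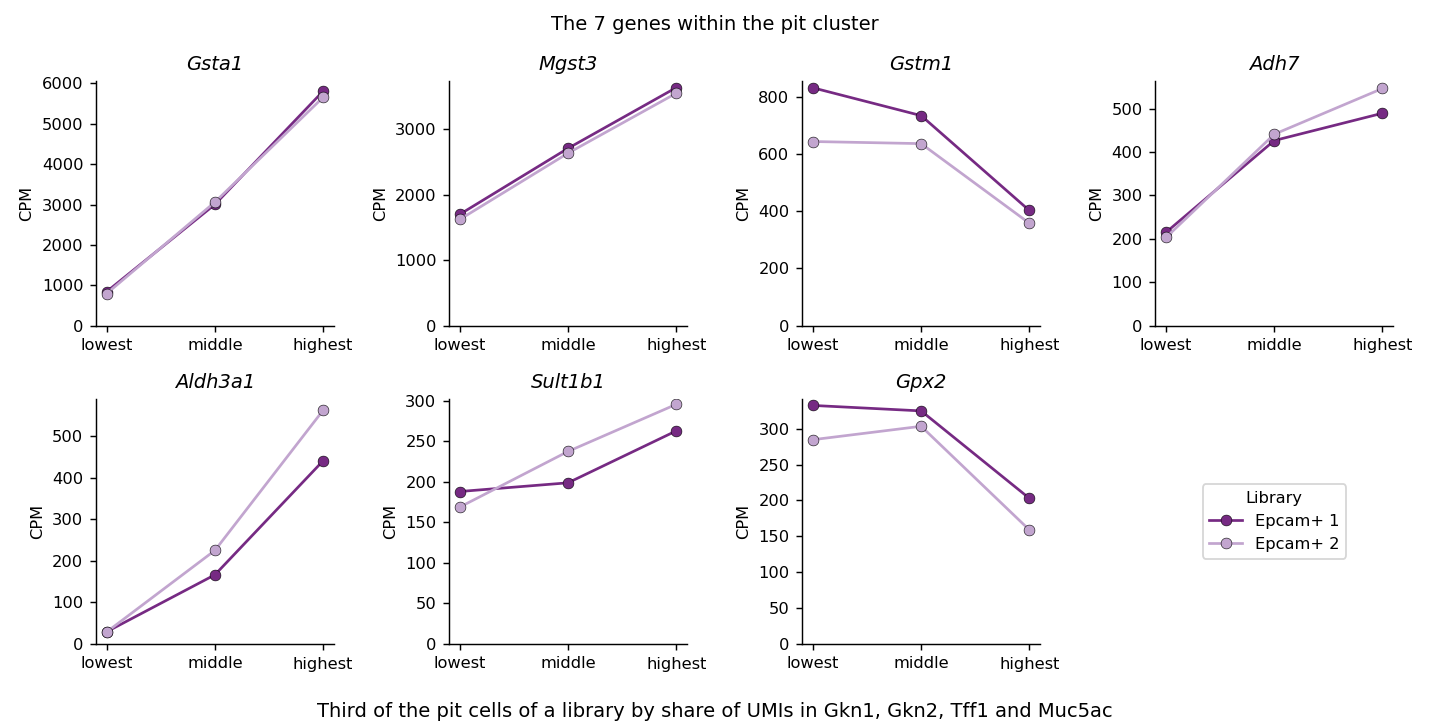
CPM of each gene in the lowest, middle and highest of 3 equal parts of the pit cells, ordered within a library by the share of UMIs in 4 pit marker genes; 1 line per Epcam+ library. Gsta1, Mgst3, Adh7, Aldh3a1 and Sult1b1 are highest in the highest part in both libraries, and Gstm1 and Gpx2 are lowest there.

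Whether the label-retaining GFP+ cells of a cluster differed from its Epcam+ cells was tested on UMIs summed per library with edgeR's quasi-likelihood test. Benjamini-Hochberg adjustment ran over all genes that passed a filter on low counts in that comparison. Fold changes are GFP+ over Epcam+. In pit cells only Gsta1 passed, 1 of the 7 genes, beside a background of 0.364% of 10983 genes called in either direction and 0.209% called higher. With TMM scaling Gsta1 was at 5794 and 6173 CPM in GFP+ pit cells and at 3352 and 3237 CPM in Epcam+ pit cells, and both GFP+ libraries lay above both Epcam+ libraries. Its log2 fold change was 0.86 (SE 0.080, 1.82-fold, edgeR adjusted p = 0.0151). The pit markers moved the same way: the 4 marker genes took a median of 12.6% and 17.95% of the UMIs of a GFP+ pit cell, against 7.40% and 9.31% of an Epcam+ pit cell, and Tff1 (log2 0.83, edgeR adjusted p = 0.0428) and Psca (log2 0.86, edgeR adjusted p = 0.0244) were called higher among the 10 markers. Markers of other cells moved in the same pit cells. The chief list had a median log2 fold change of 1.53 and 6 of its 9 genes tested had an unadjusted p under 0.05, with summed levels of 15067 and 7009 CPM in GFP+ and 11555 and 11703 CPM in Epcam+ pit cells. The neck list had a median of -1.07 with 3 of 4 genes under that p, and sums of 21037 and 11708 CPM in GFP+ and 25956 and 24387 CPM in Epcam+ pit cells. In the list of cycling isthmus cells, with sums of 301 and 268 CPM in GFP+ and 430 and 423 CPM in Epcam+ pit cells, the median was -0.54 and Birc5 was called lower. The part of these differences in the Gsta1 result was not tested. Among pit cells at or above the overall median marker share of 9.06% (28 and 23 GFP+ cells, 160 and 231 Epcam+ cells), a subset chosen after seeing the data, Gsta1 was at 7189 and 6387 CPM in GFP+ cells and at 5285 and 4983 CPM in Epcam+ cells. Its log2 fold change was then 0.40 (SE 0.093, edgeR adjusted p = 0.260).

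The other 6 genes did not pass in pit cells. Adh7 was at 451 and 548 TMM-scaled CPM in GFP+ and at 373 and 395 in Epcam+ pit cells (log2 fold change 0.38, SE 0.115, edgeR adjusted p = 0.186), and the groups did not overlap. Mgst3 was at 3016 and 3012 in GFP+ and at 2662 and 2579 in Epcam+ pit cells on the same scale (log2 0.20, SE 0.078, edgeR adjusted p = 0.272), again without overlap. Groups stood apart in that direction in 22.8% of all genes. Aldh3a1 (log2 0.52, SE 0.230), Sult1b1 (log2 0.11, SE 0.150), Gstm1 (log2 -0.015, SE 0.112) and Gpx2 (log2 0.093, SE 0.156) overlapped between the sorts, with edgeR adjusted p-values of 0.323, 0.768, 0.967 and 0.812. In isthmus cells, with 17 and 10 GFP+ cells in cluster 3 and 11 and 8 in cluster 4, Gsta1 was at 2179 and 2033 CPM in GFP+ cells of cluster 3, against 1353 and 1388 CPM in Epcam+ cells, and at 2774 and 4165 CPM in GFP+ cells of cluster 4, against 1355 and 1609 CPM. These were too few cells for a test. The summed pit markers were also higher in the GFP+ cells of cluster 3, at 65990 and 76601 CPM against 36939 and 48449 CPM in Epcam+ cells. In cluster 4 single markers were mixed. Tff1 was at 31380 and 72080 CPM in GFP+ cells against 21111 and 24789 CPM in Epcam+ cells. Gkn1 overlapped, at 9198 and 37224 CPM against 6522 and 11980 CPM, and so did Muc5ac, at 987 and 1926 CPM against 1289 and 1561 CPM.

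**Figure D3:**
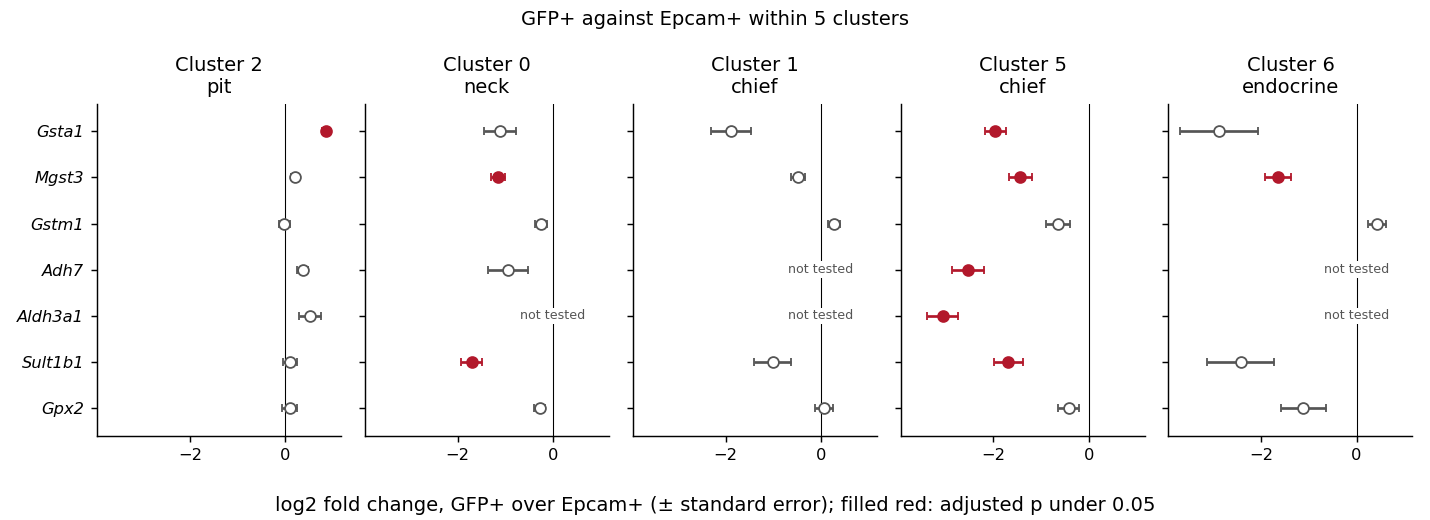
log2 fold change of GFP+ over Epcam+ cells with its standard error for each gene within 5 clusters; filled red points passed an adjusted p of 0.05 with edgeR (2 libraries per sort). Gsta1 is above 0 in pit cells (0.86) and the red points of the other clusters all lie below 0; in clusters 5 and 6 they are lost without cells called doublets.

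In neck cells 2 genes were called lower in GFP+ cells. Mgst3 was at 179 and 147 TMM-scaled CPM in GFP+ neck cells and at 322 and 412 in Epcam+ neck cells, a log2 fold change of -1.16 (SE 0.146, edgeR adjusted p = 0.0335). Sult1b1 was at 11.6 and 8.69 in GFP+ and at 29.9 and 38.5 in Epcam+ neck cells on that scale, with 41 and 17 UMIs in GFP+ cells, a log2 fold change of -1.70 (SE 0.218, edgeR adjusted p = 0.0335). These were 2 of the 6 genes tested, beside 0.159% of 11287 genes called in either direction and 0.0709% called lower. Without the library Epcam+ 2 both calls were lost, with edgeR adjusted p = 0.127 for Mgst3 and 0.0824 for Sult1b1. The groups of both genes did not overlap, as in 22.1% of all genes in that direction. Gsta1 (log2 -1.12, edgeR adjusted p = 0.320), Gpx2 (log2 -0.28, edgeR adjusted p = 0.403), Adh7 (log2 -0.94, edgeR adjusted p = 0.446) and Gstm1 (log2 -0.25, edgeR adjusted p = 0.513) did not pass, and Aldh3a1 was below the filter on low counts.

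Pit and chief markers moved in the same neck cells. The 10 pit markers summed to 618 and 490 CPM in GFP+ neck cells and to 939 and 974 CPM in Epcam+ neck cells, with Krt20 at 0 in all 4 libraries, and the chief markers to 217528 and 195240 CPM in GFP+ against 148658 and 131924 CPM in Epcam+ neck cells. Set against Gkn1, a pit product, Mgst3 counted 792.5 and 872.7 UMIs per 100 Gkn1 UMIs in GFP+ neck cells and 592 and 563 in Epcam+ neck cells, whereas pit cells of the same libraries had 9.3 and 5.3 in the GFP+ and 11.3 and 8.4 in the Epcam+ libraries. Sult1b1 counted 51.3 and 51.5 UMIs per 100 Gkn1 UMIs in GFP+ neck cells and 55.0 and 52.7 in Epcam+ neck cells, against 0.63 and 0.49 in GFP+ pit cells and 0.89 and 0.75 in Epcam+ pit cells. The third of pit cells with least pit marker RNA came nearer to the neck values, with 194 and 129 UMIs of Mgst3 and 21.5 and 13.47 UMIs of Sult1b1 per 100 Gkn1 UMIs in the Epcam+ libraries. The part of pit cell RNA and of chief cell RNA in the neck result was not tested.

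In cluster 5, a chief cluster with 62 and 40 GFP+ cells and 85 and 91 Epcam+ cells, 5 of the 7 genes were called lower in GFP+ cells, beside 0.309% of 9074 genes called in either direction and 0.264% called lower. Gsta1 was at 65.0 and 77.2 TMM-scaled CPM in GFP+ cells and at 332 and 219 in Epcam+ cells, a log2 fold change of -1.96 (SE 0.216, edgeR adjusted p = 0.00147). Aldh3a1 (log2 -3.07, edgeR adjusted p = 0.00147), Adh7 (log2 -2.53, edgeR adjusted p = 0.00395), Mgst3 (log2 -1.43, edgeR adjusted p = 0.0210) and Sult1b1 (log2 -1.69, edgeR adjusted p = 0.0311) were also called, and Gstm1 (log2 -0.65, edgeR adjusted p = 0.479) and Gpx2 (log2 -0.42, edgeR adjusted p = 0.628) were not. These calls rested on few cells. The tenth of cluster 5 cells with most UMIs of the 7 genes held 66.5% and 75.8% of those UMIs in the GFP+ libraries and 65.4% and 85.6% in the Epcam+ libraries, and the same cells held 98.6% and 98.5% of the pit marker UMIs in the GFP+ and 89.1% and 98.2% in the Epcam+ libraries. In this cluster 13.3% of cells were called doublets (2 cells under 1 barcode), 8 and 4 in the GFP+ and 14 and 11 in the Epcam+ libraries. Without them Gsta1 was at 57.5 and 0.63 CPM in GFP+ cells, the second value being 1 UMI, and at 260 and 6.46 CPM in Epcam+ cells. The log2 fold change was then -1.96, as large as with all cells, but its SE was 1.23, the groups overlapped, the edgeR adjusted p was 0.910 and 0 genes in all were called.

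**Figure D4:**
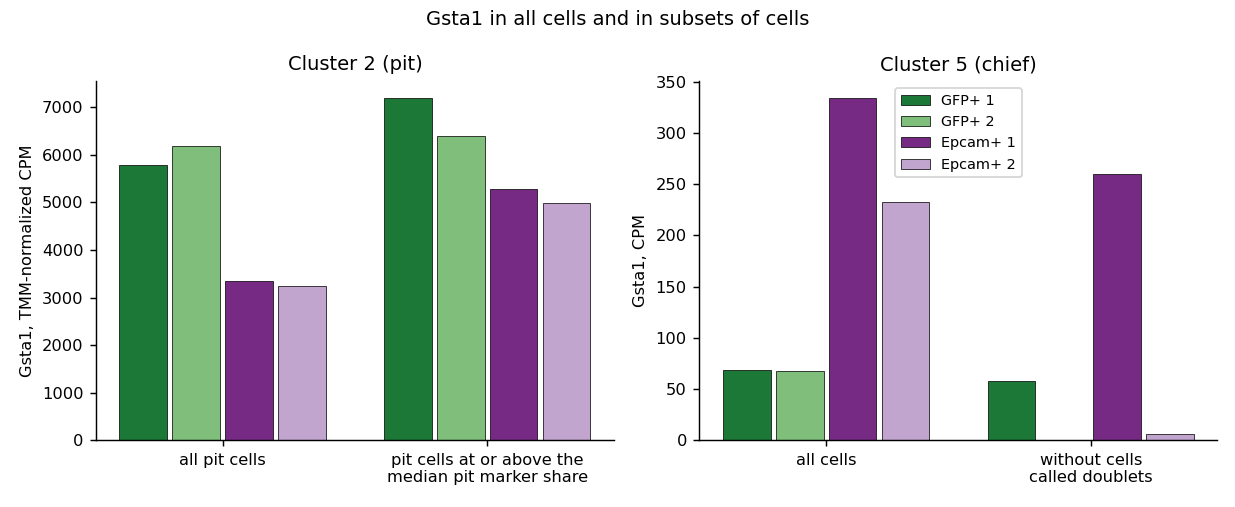
Left, Gsta1 in TMM-normalized CPM in all pit cells and in pit cells at or above the median pit marker share; right, Gsta1 in CPM in chief cluster 5 with all cells and without cells called doublets; 1 bar per library. In pit cells the GFP+ bars stay above the Epcam+ bars but closer to them in the subset, and in cluster 5 the libraries fall to 57.5, 0.63, 260 and 6.46 CPM without doublets.

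Endocrine cluster 6 had 1 call among the 5 genes tested, beside 0.221% of 9960 genes. Mgst3 was at 27.2 and 35.8 TMM-scaled CPM in GFP+ cells and at 122 and 71.3 in Epcam+ cells, a log2 fold change of -1.66 (SE 0.272, edgeR adjusted p = 0.0271). Without doublets it was -0.67 (edgeR adjusted p = 0.641), and the call was also lost without GFP+ 1 (edgeR adjusted p = 0.312) and without GFP+ 2 (edgeR adjusted p = 0.0938). The summed pit markers there were 215 and 158 CPM in GFP+ cells and 1591 and 557 CPM in Epcam+ cells. In chief cluster 1 edgeR called 0 of the 5 genes tested, beside 0.0887% of 10146 genes, and 4 had an unadjusted p under 0.05, as did 809 of the 10146 genes. Of these 4, Gstm1 was higher in GFP+ cells (log2 0.28) and Gsta1, Mgst3 and Sult1b1 were lower. Gsta1 there was at 1.49 and 0.39 TMM-scaled CPM in GFP+ cells and at 3.21 and 2.89 in Epcam+ cells, from 32 and 15 UMIs against 73 and 88, with a log2 fold change of -1.88 (SE 0.420, edgeR adjusted p = 0.291; DESeq2 adjusted p = 0.239), which was -2.94 without GFP+ 1 and then called (edgeR adjusted p = 0.00922), and -1.02 without GFP+ 2 (edgeR adjusted p = 0.139), and was also called without Epcam+ 1 (edgeR adjusted p = 0.0493).

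The difference between the pit effect and that of another cluster was tested as an interaction, with library as a block. Against neck cells 3 of the 7 genes passed, beside 0.641% of 11700 genes: Gsta1 (log2 difference 1.93, SE 0.320, edgeR adjusted p = 0.0280), Mgst3 (1.33, SE 0.175, edgeR adjusted p = 0.00924) and Sult1b1 (1.73, SE 0.234, edgeR adjusted p = 0.0106). All 3 passed without doublets too, and without Epcam+ 2 Gsta1 (edgeR adjusted p = 0.0610) and Mgst3 (edgeR adjusted p = 0.0617) no longer did. Only 2 of 1121 neck cells and 7 of 884 pit cells were called doublets, so leaving them out could change the neck comparison little. Against chief cluster 1 the background was 0.286% and Gsta1 (2.78, edgeR adjusted p = 0.00928) and Adh7 (3.59, edgeR adjusted p = 0.0167) passed. Within cluster 1 Adh7 was below the filter on low counts. It entered the interaction test only through its pit counts, so its call shows no tested effect in cluster 1. Adh7 had 1 and 2 UMIs in GFP+ cells of cluster 1 and 14 and 11 in Epcam+ cells, and its call was lost without GFP+ 2 (edgeR adjusted p = 0.105), while that of Gsta1 was lost without doublets (edgeR adjusted p = 0.0943) and its difference was 3.87 without GFP+ 1 and 1.89 without GFP+ 2, called in both cases. Against cluster 5 the background was 0.868% and the same 5 genes passed as within that cluster, and against cluster 6 it was 0.268% and Mgst3 passed (1.85, edgeR adjusted p = 0.0118). Without doublets these 6 calls were lost, with edgeR adjusted p-values of 0.745 to 0.860 for cluster 5 and 0.181 for cluster 6.

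The wider detoxification families hold the 7 genes and their relatives. The counts include the chosen genes, such as Gsta1 and Mgst3 among the transferases, Sult1b1 among the sulfotransferase genes and Gsta1 in the Nrf2 pathway. Of 22 glutathione transferase genes with at least 10 CPM in a cluster, 10 were highest in pit cells. Gsta4, which acts on lipid peroxidation aldehydes, averaged 2407 CPM in pit and 453 CPM in neck cells, and Gsto1, an omega-class enzyme, 2216 CPM in pit and 625 CPM in neck cells. Of 10 genes for sulfotransferases and sulfate donors 6 were highest in pit cells, among them Sult1c2 with 560.5 CPM in pit and 327 CPM in neck cells and Sult1d1 with 387 CPM in pit and 26.7 CPM in neck cells. Counts were 19 of 29 for the Nrf2 pathway, with Nqo1 at 572 CPM in pit and 37.5 CPM in neck cells, 7 of 18 for carbonyl and aldo-keto reductases, with Cbr3 at 748 CPM in pit and 129.5 CPM in neck cells, 6 of 14 for cytochromes P450 and their reductases, and 4 of 5 for glucuronidation, with Ugdh, which makes the glucuronic acid donor, at 414 CPM in pit and 26.7 CPM in neck cells.

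The remaining lists covered aldehyde, peroxide and glutathione handling and export. Of 17 alcohol and aldehyde dehydrogenases 5 were highest there, of 6 aryl hydrocarbon receptor pathway genes 3, of 16 glutathione synthesis and recycling genes 2, of 5 glutathione peroxidases 1, of 21 other peroxide and superoxide defence genes 1 and of 6 efflux genes 1. The exporter gene Abcc3 averaged 107.5 CPM in pit and 8.81 CPM in neck cells, and the glutathione reductase gene Gsr, highest in cluster 4, averaged 242.5 CPM in pit cells. These lists were drawn up with results of these data known, and the shares stand beside the 7.50% of all genes without a test. Adh7 and Aldh3a1 are counted among the dehydrogenases. Where a list of this or the preceding paragraph holds genes chosen as pit genes, part of its share was fixed by that choice.

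Between the sorts, 1 of 25 glutathione transferases tested in pit cells was called, Gsta1 itself, with a median log2 fold change of 0.27 over the list and -0.0040 over all genes. Of the relatives whose transcripts share ends with Gsta1, Gsta2 had a log2 fold change of 0.79 (edgeR adjusted p = 0.0732) and Gm3776 of 0.75 (edgeR adjusted p = 0.0999). Gsta3 had 0.57 (edgeR adjusted p = 0.0969) and Gsta4 0.41 (edgeR adjusted p = 0.112). Of 30 Nrf2 pathway genes Gsta1 alone was called (median log2 0.16). None of the 16 dehydrogenases, 10 sulfotransferase genes, 17 cytochrome P450 genes, 19 carbonyl and aldo-keto reductases, 4 glutathione peroxidases, 16 glutathione synthesis genes, 22 peroxide defence genes, 7 aryl hydrocarbon receptor pathway genes, 8 glucuronidation genes and 7 efflux genes tested with edgeR passed in pit cells. At an unadjusted p under 0.05 the counts in that order were 4, 3, 10, 1, 1, 4, 2, 1, 2 and 0, beside 1754 of 10983 genes in all.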

How the data were processed

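The authors mapped 10x Genomics 3′ reads to mm10 with Cell Ranger 3.0.2 and deposited raw UMI counts per gene and cell with a table of clusters. They left out cells over 15% mitochondrial counts, over 8000 or under 1500 genes, or with a UMI of Ptprc or Pecam1, which leaves 4449 cells.

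Counts were summed per cluster and library and scaled to CPM. Sorts were compared within clusters with at least 20 cells in every library, on summed counts, with filterByExpr, TMM and the quasi-likelihood test of edgeR 4.0.16 in R 4.3.3, at an adjusted p of 0.05 with no covariate, after tests on simulated data. The study tested single cells, which takes cells as replicates. DESeq2 1.42.0 was an alternative, with other scaling, no filter, a replicate block, each library left out, no doublets (called with scanpy 1.11.5, 74 cells) and cells thinned to 16880 UMIs. Shares came from Python 3.11.15 and cover counting error only. Promoters, with a match for 6 of the 7 genes, are RefSeq's for GRCm38.p6, and transcript ends and positions GENCODE's. The members and lists were chosen with earlier results of these data known. Genes named are the 7 members, their 3 nearest genes in pattern, the list genes called in pit cells and the highest in pit cells of each list, and paralogs. The pit subset by marker share, the crossed block and interactions without doublets were added after seeing the data.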

Additional observations from a re-analysis of the deposited data

Results flagged for a closer look

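For 11 of the differences tested between clusters, the GFP+ over Epcam+ log2 fold change in pit cells lay above that in another cluster by edgeR's interaction test. Each of the 7 genes was tested against neck cells and against clusters 1, 5 and 6. The shares of all genes called in either direction were 0.641% (neck), 0.286% (cluster 1), 0.868% (cluster 5) and 0.268% (cluster 6). Against neck cells the differences were 1.93 for Gsta1, 1.33 for Mgst3 and 1.73 for Sult1b1. Against chief cluster 1 they were 2.78 for Gsta1 and 3.59 for Adh7, and Adh7 was below the filter on low counts within that cluster. Against chief cluster 5 they were 2.80 for Gsta1, 1.62 for Mgst3, 2.88 for Adh7, 3.54 for Aldh3a1 and 1.76 for Sult1b1, and against endocrine cluster 6 the difference was 1.85 for Mgst3. Without cells called doublets the differences against neck cells still passed (1.92, 1.33 and 1.72), as did that of Adh7 against cluster 1 (3.59). The other 7 did not pass. Only 2 of 1121 neck cells, 7 of 884 pit cells and 4 of 896 cluster 1 cells were called doublets. Leaving them out could therefore change the neck differences little. With 1 library left out, those ran from 1.59 to 2.56 for Gsta1, from 1.17 to 1.54 for Mgst3 and from 1.45 to 2.33 for Sult1b1.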

How the results depend on the processing

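Gsta1 in pit cells stayed called under each setting listed beforehand, with log2 fold changes of 0.73 (library totals without scaling factors) to 0.90 and edgeR adjusted p-values up to 0.0440, and lost the call only in the added subset of pit cells with a high marker share. The number of genes called moved more. In pit cells 40 genes were called, and 24 with library totals, 143 with DESeq2, 639 with no filter on low counts, 114 with cells thinned to one depth and 4 in the marker subset. In neck cells 18 were called, and 44 with DESeq2. In cluster 1, 9 were called, and 14 with library totals, 20 with DESeq2 and 236 with no filter. In cluster 5, 28 were called, and 44 with library totals, 178 with no filter, 9 thinned and 0 without doublets. In cluster 6, 22 were called, and 38 with library totals, 140 with no filter and 3 without doublets. The interaction counts moved to 70 (cluster 1) and 77 (cluster 6) with library totals and to 3 (cluster 5) without doublets.

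Leaving out 1 library at a time gave 7 to 275 calls in neck cells, 13 to 78 in cluster 1, 114 to 156 in pit cells, 11 to 226 in cluster 5 and 14 to 110 in cluster 6, and 52 to 188, 70 to 160, 43 to 470 and 30 to 106 for the interactions with neck, cluster 1, cluster 5 and cluster 6. The lone library of a sort was then assumed to vary like the other sort.

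Replicate numbers are shared by label only. Deviations of same-numbered libraries correlated at 0.233 (neck), 0.180 (cluster 1), 0.180 (pit), -0.037 (cluster 5) and 0.146 (cluster 6). With a replicate block 665, 412, 222, 18 and 98 genes were called in these clusters, and with the crossed block, added after seeing the data, 229 in pit, 11 in neck and 10 in cluster 6. Under the replicate block Gsta1 was also called in neck cells and clusters 1 and 6 and Mgst3 in cluster 1, and Mgst3 and Sult1b1 were not called in cluster 5.

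Signs turned only for genes that were not called. In pit cells these were Mgst3 (-0.085), Aldh3a1 (-0.062) and Sult1b1 (-0.15) in the marker subset, Sult1b1 (-0.020) and Gpx2 (-0.030) with library totals and Gstm1 (0.0039) thinned. With 1 library left out, the pit values ran from -0.13 to 0.33 for Sult1b1, from -0.12 to 0.092 for Gstm1 and from -0.18 to 0.30 for Gpx2, and that of Gpx2 in cluster 1 from -0.18 to 0.34. The interaction ran from -0.83 to 6.30 for Aldh3a1 and from -0.0050 to 0.47 for Gstm1 against neck, and from -0.12 to 0.12 for Gpx2 against cluster 1, where it was -0.077 with library totals. The cause of these shifts was not tested. With 2 libraries per sort and 42 and 27 GFP+ pit cells, differences of single genes are known only to the standard errors given.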
